A study of Oryza sativa with 3 samples.

Results

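The 6 rice precursors osa-MIR159a to osa-MIR159f form the MIR159 family, whose mature miRNAs are known for targeting GAMYB mRNAs. Its members were taken by precursor name from the 516 known precursors with a read, and each distinct sequence was counted a single time per library. All 6 had reads in all 3 libraries, 519 distinct sequences in all. The small RNA libraries came from wild type Nipponbare (NP, line label WT-N), from the OsNAR2.1 overexpression line Ov199 (pUbi-OsNAR2.1, driven by the Ubi promoter) and from an OsNAR2.1 RNAi line (RNAi, line label Ni, which the sources do not explain). OsNAR2.1 is the partner protein of high-affinity nitrate transporters. Each line gave 1 library, from RNA pooled over leaves, flowers and stems at blooming, so there were no replicates. Every test below compares reads, between libraries or between families within a library, and not the lines. All intervals cover counting error only, since each line gave 1 library. The reads carry no molecular identifiers, so copies from amplification could not be told apart and counting error may be understated. The files hold small RNAs aligned to miRNA precursors, so neither OsNAR2.1 mRNA, GAMYB mRNAs nor markers of the pooled tissues were measured.

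Plant miR159 guides the cleavage of mRNAs of GAMYB transcription factors, MYB proteins that act downstream of gibberellin in the aleurone and in anthers. A MIR159 precursor folds into a stem much longer than that of most plant miRNA precursors, with the miRNA on its 3' arm near the base. In Arabidopsis, the long stems of MIR159 and of the related MIR319, whose miRNA targets TCP transcription factor mRNAs, are cut stepwise from the loop towards the base, so that they can release more than 1 small RNA duplex.

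The sequences that carry the findings are shown here as DNA letters, 5' to 3', as deposited, with bases 2 to 8, the seed, in capitals. Each is the most read sequence of a stem segment with at least 10 reads, and a name gives the precursor and the first position of the segment on it. The first 6 run along the MIR159a stem, from its 5' end to its 3' end, and the following 3 come from MIR159b.
MIR159a 18: gAGCTCCTttcggtccaaaaa
MIR159a 39: gGGGTGTTgctgtgggtcgattg
MIR159a 62: aGCTGCTGggtcatggatcc
MIR159a 205: cTTGCATGccccaggagctg
MIR159a 226: aTCAACCCtacatggaccct
MIR159a 247 and MIR159b 163: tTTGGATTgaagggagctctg
MIR159b 18: gAGCTCCTttcgttccaatg
MIR159b 62: aGCTGCTTgttcatggttcc
MIR159b 120: tTTGCATGaccaaggagccga
MIR159c 173, MIR159d 165 and MIR159e 167: tTGGATTGaagggagct
MIR159f 164: cTTGGATTgaagggagctct

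The sequence at MIR159a 247, 21 nt long, is shared by MIR159a and MIR159b and has the seed TTGGATT of the canonical miR159. The MIR159f sequence carries the same seed and starts at position 163, 1 base before its segment opens. The 17-nt sequence listed for MIR159c, MIR159d and MIR159e starts 1 base later and lies in all 6 precursors. The longer sequence read from MIR159c, MIR159d and MIR159e alone, aTTGGATTgaagggagctcc, also had the seed TTGGATT and had 10, 30 and 13 reads in NP, Ov199 and RNAi. The sequence at MIR159a 62 has the seed GCTGCTG and aligned at MIR159a alone.

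Of the aligned reads, the family took 3578 of 49341 in the NP library, 8430 of 94154 in the Ov199 library and 4899 of 62724 in the RNAi library. These are 7.25% of the library in NP (95% Wilson interval 7.03 to 7.48), 8.95% in Ov199 (8.77 to 9.14) and 7.81% in RNAi (7.60 to 8.02). The 3 intervals did not overlap, and the order of the family levels was NP, RNAi, Ov199. Normalized counts, reads per 1000000 aligned reads, were 72516, 89534 and 78104 for NP, Ov199 and RNAi. For NP, Ov199 and RNAi, 1 read equalled 20.3, 10.6 and 15.9 normalized counts. Where no read was found, a level of up to 3 reads cannot be told from 0, which equals 60.8, 31.9 and 47.8 normalized counts.

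Nearly all of these reads could be placed at MIR159a, many of them at other members too, and MIR159a was the member that gave reads of its own in number. In the order NP, Ov199, RNAi, osa-MIR159a had 3452, 8276 and 4813 reads, or 69962, 87898 and 76733 normalized counts. In the same order osa-MIR159b followed with 1537, 3421 and 1844 reads, and osa-MIR159c had 77, 140 and 77, osa-MIR159d 75, 140 and 78, and osa-MIR159e 82, 156 and 81. The last member, osa-MIR159f, had 183, 269 and 142 reads. Most reads of the other 5 members were also placed at a further member, so reads that lie at only 1 precursor are given next.

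Reads placed at both MIR159a and MIR159b made up 39.3% of the family in NP, 37.6% in Ov199 and 34.8% in RNAi. Reads placed among the members at MIR159a alone made up 54.4%, 58.1% and 61.3%. Those of MIR159b alone were 0.866%, 0.558% and 0.674%, and those placed at all 6 members 1.70%, 1.21% and 1.27%. Uniquely placed reads numbered 1945, 4902 and 3002 for MIR159a, 31, 47 and 33 for MIR159b, and 72, 61 and 33 for MIR159f. MIR159c, MIR159d and MIR159e had between 0 and 2 uniquely placed reads in any library, so they could not be told from the other members by their own reads. A further 3 precursors predicted by the authors shared family sequences, with 10, 4 and 3 reads in NP, Ov199 and RNAi.

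**Figure D1:**
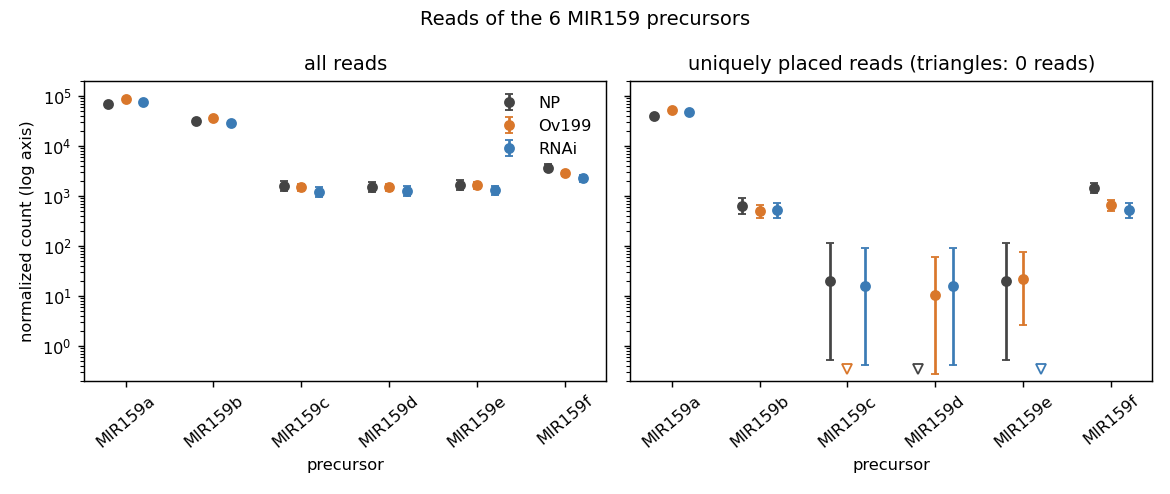
Normalized counts (log axis) of the 6 precursors in the 3 libraries, from all reads at left and from uniquely placed reads at right, with exact Poisson 95% intervals. MIR159a is the highest in both panels, MIR159c, MIR159d and MIR159e rest on 0 to 2 unique reads, and the unique reads of MIR159f are higher in NP than in the other libraries.

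Between libraries, the family differed by far less than 2-fold. On the normalized count + 10 scale, the family level of Ov199 was 1.23 times that of NP (ratio interval 1.19 to 1.28), with an adjusted p of 3.8e-27 by Fisher's exact test over 259 families. The level of RNAi was 1.08 times that of NP (1.03 to 1.12), which Fisher's exact test over 255 families gave an adjusted p of 0.0065, but with reads of 20 to 24 nt alone it was 0.966 (adjusted p = 0.49). RNAi was at 0.872 of Ov199 (0.842 to 0.904; exact test, adjusted p = 3.0e-14). The share of all families called was 18.9% between Ov199 and NP, 9.8% between RNAi and NP, and 18.2% between RNAi and Ov199.

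None of the 6 members was past 2-fold by all reads in any of the 3 comparisons, and 42.5% of known precursors were past 2-fold between Ov199 and NP, 43.5% between RNAi and NP, and 46% between RNAi and Ov199. Precursors with few reads made up most of these, since 206, 208 and 227 precursors were past 2-fold but only 61, 64 and 88 of those with at least 10 reads in either library, as the members had. Fisher's exact test called 3 of the 6 members between Ov199 and NP, 2 between RNAi and NP, and 2 between RNAi and Ov199, where it called 19%, 15.5% and 20.9% of known precursors. They share reads, so these are not separate results. The median fold of the 6 members was 0.988, 0.804 and 0.818 in the 3 comparisons, beside 1.03, 1.05 and 1.06 over all known precursors tested.

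MIR159a was 1.26-fold higher in Ov199 than in NP (ratio interval 1.21 to 1.31; Fisher's exact test, adjusted p = 1.7e-30) and 1.10-fold higher in RNAi than in NP (1.05 to 1.15; adjusted p = 2.1e-04), although the latter was 0.983 with reads of 20 to 24 nt alone (adjusted p = 0.78). Its level in RNAi was 0.873 of that in Ov199 (exact test, adjusted p = 1.1e-13). With uniquely placed reads, MIR159a was 1.32-fold higher in Ov199 and 1.21-fold higher in RNAi than in NP, with exact-test adjusted p of 2.7e-25 and 3.3e-10. Of the known precursors with uniquely placed reads, this test called 9.95% between Ov199 and NP, 6.14% between RNAi and NP, and 13.9% between RNAi and Ov199.

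MIR159b, whose reads are nearly all shared with MIR159a, had folds of 1.17 for Ov199 over NP, 0.944 for RNAi over NP and 0.809 for RNAi over Ov199. Fisher's exact test called the first and the last, with adjusted p of 4.1e-06 and 1.5e-12, and gave 0.32 for RNAi against NP. With reads of 20 to 24 nt alone, the call of Ov199 over NP was lost (fold 1.10, adjusted p = 0.059) and RNAi was called lower than NP (fold 0.812, adjusted p = 3.2e-05). On its own 31, 47 and 33 reads, MIR159b was not called in any comparison, and the fold of Ov199 against NP was 0.798 (ratio interval 0.494 to 1.29), on the other side of 1. MIR159c, MIR159d and MIR159e had folds between 0.778 and 0.997 in the 3 comparisons, none of them called, and those of Ov199 against NP were above 1 under some scalings and read filters. With adapter-trimmed totals the folds of RNAi over Ov199 were 0.686, 0.695 and 0.648 and all 3 were called (exact test, adjusted p = 0.033, 0.040 and 0.0083).

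MIR159f went the other way from MIR159a. Its uniquely placed reads gave 1459 normalized counts in NP (72 reads), 648 in Ov199 (61 reads) and 526 in RNAi (33 reads), highest in NP although NP was the shallowest library. The fold was 0.448 in Ov199 against NP (ratio interval 0.310 to 0.633) and 0.365 in RNAi against NP (0.231 to 0.552). Both were past 2-fold, with adjusted p of 7.8e-05 and 2.1e-05 by Fisher's exact test over 402 and 391 precursors. RNAi and Ov199 did not differ beyond counting error (fold 0.815, ratio interval 0.515 to 1.26). By all reads, which include those shared with MIR159a, the MIR159f folds against NP were 0.771 in Ov199 and 0.611 in RNAi, with exact-test adjusted p of 0.041 and 1.4e-04, neither past 2-fold. These calls depended on the setting: that of Ov199 was lost under 5 alternatives, TMM among them (adjusted p = 0.31), and that of RNAi with exact matches (fold 0.706, adjusted p = 0.055). With reads of 20 to 24 nt alone both folds were past 2-fold, 0.441 in Ov199 (adjusted p = 7.4e-06) and 0.345 in RNAi (adjusted p = 4.6e-07). With adapter-trimmed totals the unique-read fold of Ov199 was 0.529 (adjusted p = 0.0039), called but short of 2-fold. The test on uniquely placed reads was chosen after the data were examined.

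The most read sequence of MIR159f, cTTGGATTgaagggagctct, had 42 reads in NP, 34 reads in Ov199 and 22 reads in RNAi, which are 851, 361 and 351 normalized counts. Its folds against NP were 0.431 in Ov199 (exact test, adjusted p = 0.024 over 7663 distinct sequences) and 0.419 in RNAi (adjusted p = 0.068 over 6793), and the former was not called with TMM scaling (adjusted p = 0.085) or adapter-trimmed totals (0.18). The latter was called with exact matches (fold 0.406, adjusted p = 0.022), with reads of 20 to 24 nt (0.377, adjusted p = 0.021) and with sequences of at least 2 reads (0.412, adjusted p = 0.024). Of all distinct sequences the exact test called 1.02% between Ov199 and NP, 0.824% between RNAi and NP, and 0.964% between RNAi and Ov199. Reads placed among the members at MIR159f alone were 2.07% of the family in NP (95% interval 1.65 to 2.59), 0.735% in Ov199 (0.574 to 0.942) and 0.694% in RNAi (0.497 to 0.968). The NP interval lay above the other 2, which overlapped. The most read sequence of MIR159f differs only in its first base from a 20-nt sequence shared by MIR159a and MIR159b. In NP, Ov199 and RNAi, that shared sequence had 356, 631 and 371 reads. A read of it with that base changed could be placed at MIR159f alone. Among reads overlapping the canonical miR159 of MIR159a, 5.82%, 4.42% and 4.03% had a mismatch at the first base, in the same order. What part of the MIR159f reads arose this way was not tested.

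The most read sequence of the family was aGCTGCTGggtcatggatcc, from the 5' arm of MIR159a, and not the canonical miR159. The libraries NP, Ov199 and RNAi held 661, 1861 and 1083 reads of it, which is 18.5%, 22.1% and 22.1% of the family's reads. Its level was 1.48-fold higher in Ov199 than in NP (exact test, adjusted p = 4.1e-16) and 1.29-fold higher in RNAi than in NP (adjusted p = 6.8e-05). RNAi was at 0.874 of Ov199 for this sequence (exact test, adjusted p = 0.038). The call of RNAi against NP was lost with reads of 20 to 24 nt alone (fold 1.16, adjusted p = 0.20), and that of RNAi against Ov199 with the total without MIR1876 (adjusted p = 0.11).

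The 21-nt canonical sequence, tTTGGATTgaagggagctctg, had 267, 741 and 353 reads in NP, Ov199 and RNAi. It was 1.45-fold higher in Ov199 than in NP (exact test, adjusted p = 1.9e-05), with a fold of 1.04 in RNAi against NP (adjusted p = 1, ratio interval 0.885 to 1.22). RNAi was at 0.715 of Ov199 (adjusted p = 4.2e-05). Its form 1 base shorter at the 3' end, tTTGGATTgaagggagctct, had 356, 631 and 371 reads in NP, Ov199 and RNAi, more often than the 21-nt form in NP and RNAi and less often in Ov199.

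Grouped by seed, GCTGCTG took 46.0%, 49.5% and 52.7% of the family's reads in NP, Ov199 and RNAi, and TTGGATT 36.8%, 34.4% and 31.8%. The seed TCAACCC, that of the sequence at MIR159a 226, took 3.07%, 4.25% and 3.37%. Seeds shifted by 1 base, TGGATTG and TTTGGAT, took 3.30%, 3.24% and 3.12%, and 2.93%, 2.16% and 1.94%. The intervals of GCTGCTG did not overlap between any of the 3 libraries.

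Along MIR159a, reads fell into 6 segments, 3 on each arm of the stem, and 4 of 16541 reads lay outside them. A segment is a window of 21 nt that opens at a most frequent 5' end, with positions counted from 1 at the precursor's first base. On the 5' arm the segments opened at positions 18, 39 and 62, with steps of 21 and 23 nt. On the 3' arm they opened at 205, 226 and 247, with steps of 21 and 21 nt. Facing segments could pair into 3 duplexes in a row: 18 with 247 (19 base pairs, -32 kcal/mol by RNAduplex), 39 with 226 (17 pairs, -17.7 kcal/mol) and 62 with 205 (14 pairs, -22.4 kcal/mol). These pairings are predicted from the window sequences and were not measured. The facing segment was the partner with the lowest energy, and the other pairings lay between -9.8 and -15 kcal/mol. In 21-nt windows, the predicted 3' overhangs of the 5' and 3' strands were 1 and 1 nt for 18 with 247. They were 0 and 0 nt for 39 with 226, and 2 and 1 nt for 62 with 205.

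**Figure D2:**
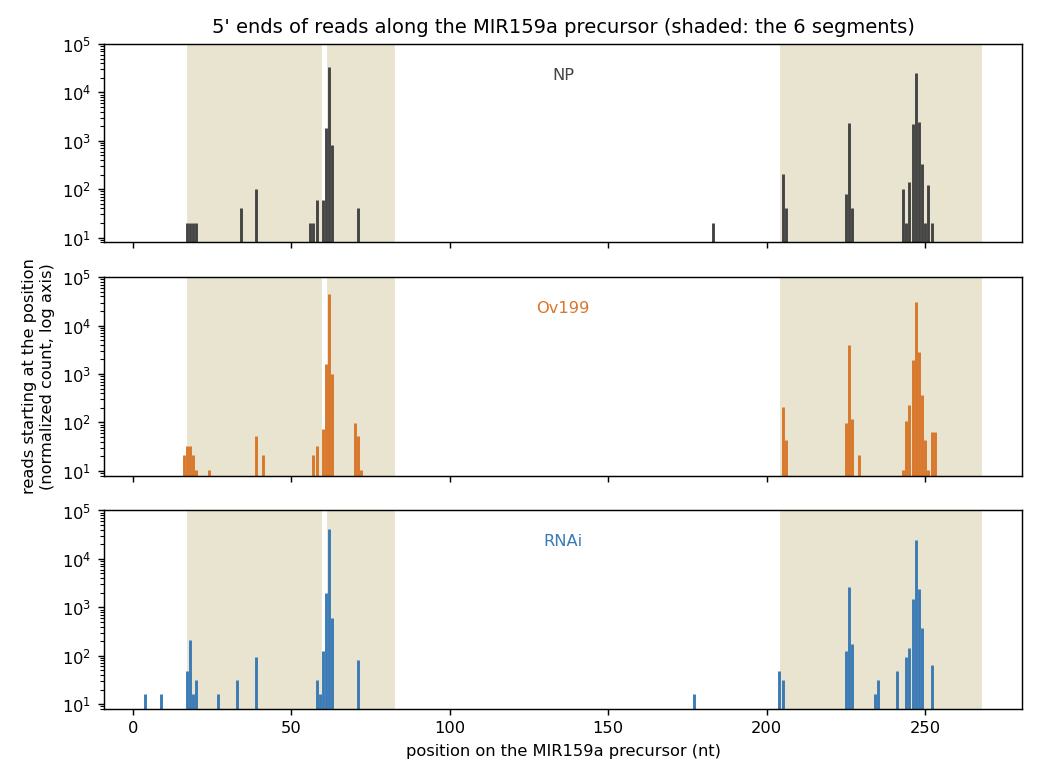
Normalized count (log axis) of reads by the position of their 5' end on the MIR159a precursor, 1 panel per library, with the 6 segments shaded. In every library the peaks at 62 and 247 are the highest, 226 follows, and 18, 39 and 205 are low.

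The 2 abundant segments came from different duplexes. Segment 62 on the 5' arm had 1795, 4466 and 2774 reads in NP, Ov199 and RNAi, or 52.0%, 54.0% and 57.6% of MIR159a. Segment 247 on the 3' arm, that of the canonical miRNA, had 1512, 3375 and 1814 reads, or 43.8%, 40.8% and 37.7%. The middle segment 226 had 121, 392 and 189 reads, and its most read sequence aTCAACCCtacatggaccct had 56, 153 and 60 reads. That sequence was lower in RNAi than in Ov199, with a fold of 0.591 (exact test, adjusted p = 0.046), and was not called against NP in either library (folds 1.43 and 0.844). All reads of segments 62 and 226 were placed at MIR159a alone, while 9 of the 6701 reads of segment 247 were.

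Each duplex was read almost wholly from 1 strand, and the strand that was read differed between duplexes. In the duplex nearest the loop, 62 with 205, the 5' strand took 99.3%, 99.5% and 99.8% of the reads in NP, Ov199 and RNAi. In the duplex nearest the base, 18 with 247, the 3' strand dominated, and the 5' strand took 0.264% in NP (95% interval 0.103 to 0.676), 0.354% in Ov199 (0.203 to 0.618) and 1.09% in RNAi (0.707 to 1.68). The RNAi interval lay above the other 2, with adjusted p of 0.018 against NP and 0.0078 against Ov199 by Fisher's exact test, on 20 reads of this strand. All but 9 of the 6701 reads of its 3' strand are not unique to MIR159a and can also come from MIR159b. This share and its tests are therefore not those of the MIR159a duplex alone. In the middle duplex, 39 with 226, the 3' strand dominated as well, with 5.47%, 1.75% and 4.06% of the reads on the 5' strand. The lesser strands were read few times: segment 205 had 12, 24 and 5 reads, segment 18 had 4, 12 and 20, and segment 39 had 7, 7 and 8. The most read sequences there, cTTGCATGccccaggagctg, gAGCTCCTttcggtccaaaaa and gGGGTGTTgctgtgggtcgattg, had 8 reads or fewer in every library.

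The share of the 5' product in the sum of both abundant segments was 54.3% in NP (95% interval 52.6 to 56.0), 57.0% in Ov199 (55.9 to 58.0) and 60.5% in RNAi (59.0 to 61.9). The share was 6.18 percentage points higher in RNAi than in NP (3.97 to 8.39; Fisher's exact test, adjusted p = 2.0e-07), 2.68 points higher in Ov199 than in NP (0.657 to 4.70; adjusted p = 0.026) and 3.51 points higher in RNAi than in Ov199 (1.72 to 5.29; adjusted p = 5.1e-04). These exact tests of shares, 51 in all and adjusted together, were added after the data were examined. The reads at segment 247 are shared with MIR159b, and what part of them came from MIR159b could not be told apart.

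**Figure D3:**
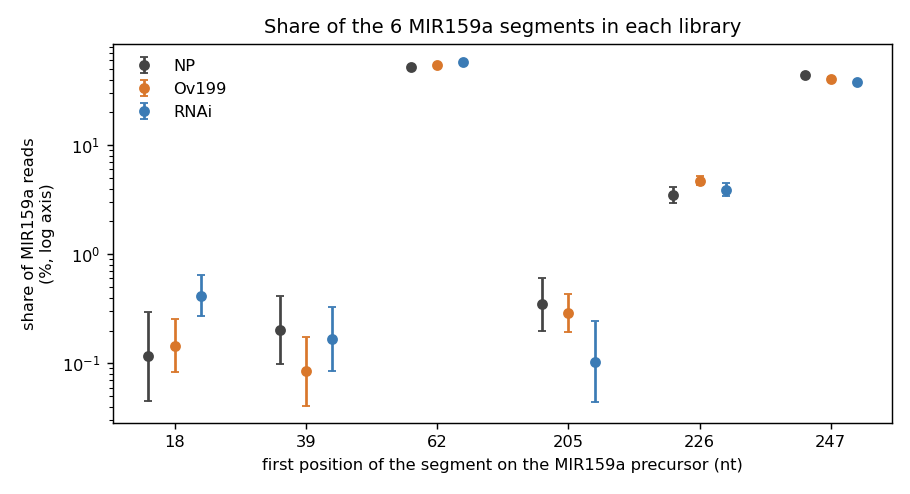
Share of MIR159a reads (%, log axis) in each of the 6 segments, by the segment's first position, with 95% Wilson intervals. Segments 62 and 247 hold most reads in all 3 libraries, segment 226 lies between 3.51 and 4.74%, and segments 18, 39 and 205 stay below 1%.

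MIR159b had 4 segments that follow the same plan without the middle duplex. They opened at 18 and 62 on the 5' arm and at 120 and 163 on the 3' arm, with steps of 44 and 43 nt. The segment at 163, the canonical miRNA shared with MIR159a, had 6694 reads over the 3 libraries. Segment 18 had 13, 19 and 20 reads in NP, Ov199 and RNAi, segment 62 had 11, 14 and 2, and segment 120 had 4, 14 and 8. The most read sequences of these 3 segments were read at MIR159b alone, gAGCTCCTttcgttccaatg 5, 12 and 5 times, aGCTGCTTgttcatggttcc 7, 5 and 0 times, and tTTGCATGaccaaggagccga 1, 3 and 5 times. Where MIR159a gave 9035 reads from its position 62, the like position of MIR159b gave 27. The only other reads on MIR159b were 3 at position 141, all in NP. That position lies between segments 120 and 163, as the middle segment 226 does between 205 and 247 on MIR159a. At this depth a rare middle duplex of MIR159b cannot be told from none.

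MIR159c, MIR159d, MIR159e and MIR159f each had 1 segment with at least 10 reads, the miR159 site on the 3' arm, with 281, 283, 305 and 566 reads. Outside it they had 13, 10, 14 and 28 reads. On MIR159f the windows of these reads opened at 19, 40, 61, 91, 118 and 139, with 5, 5, 9, 3, 5 and 1 reads. MIR159c had 2 reads at 4, 5 at 40, 5 at 127 and 1 at 148. MIR159d had 1 at 1 and 9 at 61, and MIR159e had 5 at 41 and 9 at 62. Those at 40, 41, 61 and 62 are close to segments 39 and 62 of MIR159a. None reached 10 reads, and some of these reads lie at more than 1 of these members. Reads that ended within the first 42 bases of a precursor, where the strand opposite the miRNA lies, numbered 36 for MIR159a, 52 for MIR159b, 2 for MIR159c, 1 for MIR159d, 0 for MIR159e and 5 for MIR159f, all uniquely placed. By these reads MIR159b had 13, 19 and 20 in NP, Ov199 and RNAi, beside 4, 11 and 21 for MIR159a. The 5 opposite-strand reads of MIR159f were all in NP.

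MIR159 reads were short for a miRNA family. The most common length was 20 nt, with 37.2%, 37.6% and 36.7% of the reads in NP, Ov199 and RNAi, followed by 21 nt with 27.03%, 27.76% and 27.07%. Reads of up to 20 nt made up 67.0% in NP (95% interval 65.4 to 68.5), 66.2% in Ov199 (65.1 to 67.2) and 67.0% in RNAi (65.6 to 68.3). In MIR319 such reads were 34 of 340 in NP, and their share was 12.3% in both Ov199 and RNAi, and in the other known families 14.1%, 15.9% and 13.7%. The difference between MIR159 and MIR319 was 57.0, 53.9 and 54.6 percentage points in NP, Ov199 and RNAi, with adjusted p of 8.3e-97, 1.7e-213 and 3.8e-102 (Fisher's exact test). This test, and those of MIR159a against MIR319b below, compare reads within a library. Single sequences hold many of these reads, so the p-values measure no spread between families. Among the 31 families with at least 100 reads in each library, MIR159 ranked 3 by this share in each library, where the median family was at 11.0%, 12.3% and 11.2%. Reads of 24 nt were 0.196%, 0.427% and 0.204% of MIR159.

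**Figure D4:**
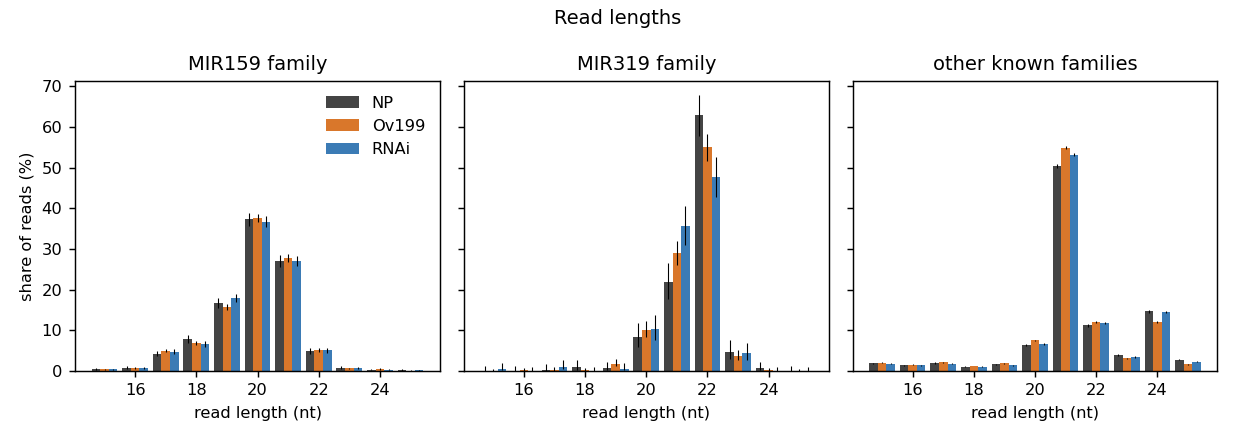
Share of reads (%) by read length in the MIR159 family, the MIR319 family and the other known families, in bars by library with 95% Wilson intervals. MIR159 peaks at 20 nt, MIR319 at 22 nt and the other families at 21 nt, and the 3 libraries give the same shape for MIR159.

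Both products varied much more at the 3' end than at the 5' end. Of the reads overlapping the 5' product aGCTGCTGggtcatggatcc by at least 15 nt, 92.3%, 94.3% and 93.8% began at its first base in NP, Ov199 and RNAi. At the 3' end, 43.9%, 48.6% and 45.6% ended with it, 27.83%, 26.42% and 26.00% reached 1 base further, and 19.9%, 17.9% and 20.4% stopped 1 base short. The form 1 base longer, aGCTGCTGggtcatggatccc, was read 399, 904 and 551 times, and the form 1 base shorter, aGCTGCTGggtcatggatc, 216, 488 and 386 times.

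For the canonical 3' product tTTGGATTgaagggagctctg, 82.5%, 84.1% and 84.0% of the overlapping reads began at its first base. Only 25.8%, 29.3% and 26.4% ended at its last base, and 28.4%, 24.4% and 25.6% stopped 1 base short, 15.1%, 15.0% and 17.4% 2 bases short, and 13.7%, 11.2% and 13.0% 3 bases short. The like product of MIR319b, cTTGGACTgaagggtgctccct, ended at its last base in 88.5%, 85.6% and 87.3% of reads. The difference of this 3' end share between MIR159a and MIR319b was -62.7, -56.2 and -60.8 percentage points, with adjusted p of 1.2e-99, 2.4e-193 and 4.7e-108 by Fisher's exact test. The MIR159a reference is the most read form of the pooled libraries, with about as many reads as the form 1 base shorter. In NP, 25.8% ended at its last base beside 28.4% at 1 base short, so the size of the difference depends partly on this choice. The 5' end of MIR319b was the less uniform one, with 69.5%, 62.6% and 51.4% of reads at its first base and 25.2%, 33.0% and 45.4% starting 1 base later. The most read form starting 1 base later had 50, 183 and 128 reads in NP, Ov199 and RNAi and lies at both MIR319a and MIR319b. How many of its reads came from MIR319a could not be told apart.

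**Figure D5:**
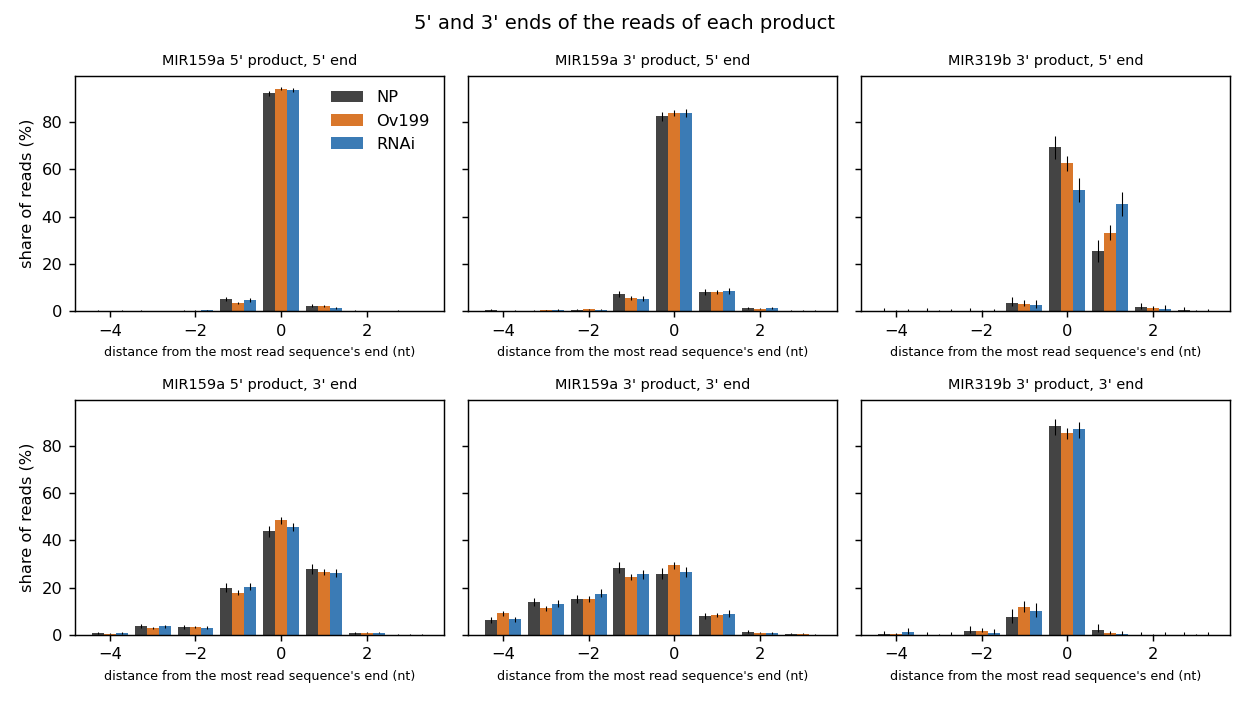
Share of reads (%) by the distance of their 5' end (top) and 3' end (bottom) from those of the most read sequence, for both MIR159a products and for MIR319b, with 95% Wilson intervals. The 5' ends of MIR159a sit at 0 in 82.5 to 94.3% of reads, while its 3' ends spread over several bases. Reads placed at MIR319b, part of which also lie at MIR319a, show the opposite.

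Many MIR159 reads also differed from the precursor at their last base. Such 3' terminal mismatches were found in 13.3%, 14.2% and 12.8% of the reads of the 5' product in NP, Ov199 and RNAi, and the mismatched base was T in 97.9%, 97.6% and 98.6% of them. In the 3' product they were found in 10.2%, 10.6% and 10.5% of reads, and the base was T in 77.9%, 76.3% and 81.6%. In MIR319b they were found in 1.87%, 1.23% and 0.27% of reads, 6, 10 and 1 reads, and the difference from the MIR159a 3' product had adjusted p of 2.3e-07, 1.3e-22 and 3.1e-14 by Fisher's exact test. Examples are aGCTGCTGggtcatggatt, read 98, 229 and 125 times, and tTTGGATTgaagggagctt, read 49, 130 and 82 times. Between libraries, the terminal mismatch share of the MIR159a products differed by at most 1.41 percentage points, and none of these differences was called by the same test. Alignments allowed at most 1 mismatch, so longer added tails could not be seen. The last base of the MIR319b product is itself T, so a T added in its place would count as a match. In the MIR159a 3' product, whose last base is G, it would count as a mismatch.

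The related MIR319 family, with 2 precursors, was much less abundant, with 340, 862 and 390 reads in NP, Ov199 and RNAi. Its folds were 1.33 for Ov199 over NP, 0.902 for RNAi over NP and 0.679 for RNAi over Ov199, with adjusted p of 7.3e-05, 0.57 and 1.5e-09 by Fisher's exact test. By all reads neither precursor was past 2-fold, and they differed in direction between RNAi and NP. MIR319a was higher in Ov199 (fold 1.59, adjusted p = 4.9e-04) and in RNAi (1.47, adjusted p = 0.016) than in NP by Fisher's exact test, while MIR319b was 1.33-fold higher in Ov199 (adjusted p = 7.8e-05) and had a fold of 0.887 in RNAi (adjusted p = 0.38). MIR319a had only 2, 4 and 9 uniquely placed reads in NP, Ov199 and RNAi, with folds of 3.04 for RNAi over NP (ratio interval 0.733 to 33.7) and 2.92 for RNAi over Ov199 (0.943 to 15.0), neither called. MIR319b had 230, 537 and 203 uniquely placed reads. On these it was lower in RNAi than in NP (fold 0.695, exact test, adjusted p = 0.0033) and than in Ov199 (0.568, adjusted p = 3.9e-11). Its unique-read fold of 1.22 for Ov199 over NP was not called (adjusted p = 0.084). MIR319b had 4 segments at 18, 62, 127 and 172, with steps of 44 and 45 nt. It so resembled MIR159b and not MIR159a in having no middle segment that reached 10 reads, a limit set by depth. Its main segment had 1502 reads, and segments 18, 62 and 127 had 26, 32 and 12.

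The family's levels over the 3 libraries were most like those of MIR5788, MIR2863 and MIR5077 among the 30 other known families with at least 100 reads in each library. Likeness was the distance between the log2 ratios of Ov199 and of RNAi to NP, and it was 0.13, 0.16 and 0.20 for the 3 families. MIR5788 had 2128, 2475 and 2152 normalized counts in NP, Ov199 and RNAi, MIR2863 4601, 6351 and 4863, and MIR5077 10134, 10929 and 10793. All 3 were lowest in NP and highest in Ov199, as MIR159 was, but they were chosen for this likeness, so the shared order is not a separate result. The steps from NP to RNAi in MIR5788 (2128 to 2152) and from RNAi to Ov199 in MIR5077 (10793 to 10929) were small and were not tested. The distance rests on 3 libraries and carries no test.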

How the data were processed

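The authors made 1 small RNA library per line (NP, Ov199 and RNAi, grouped here by title and line label), discarded reads of low quality, trimmed adapters, merged identical reads, aligned them with novoalign (version and genome build not given in the sources used here) to known precursors and to precursors predicted with miRDeep2, and deposited, for every distinct sequence, its raw read count and its positions on precursors. Reads with several places are listed at each, and were counted at each precursor but a single time per family. From these counts, normalized counts (reads per 1000000 aligned reads; totals 49341, 94154 and 62724) and folds on the normalized count + 10 scale were computed. Fisher's exact test, two-sided, compared reads of a feature with all other aligned reads of 2 libraries, with Benjamini-Hochberg adjustment over all known precursors, families or distinct sequences read in at least 1 of both libraries (threshold 0.05), and was tested on simulated data. It compares libraries, and the spread between plants is unknown. The floor for a count of 0 was 3 reads. Shares have 95% Wilson intervals, levels exact Poisson intervals and ratios exact conditional intervals. Differences of shares have 95% normal intervals.

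The text names all 6 members, the most read sequence of every stem segment with at least 10 reads, MIR319 as the related family, and the 3 families nearest in profile among those with at least 100 reads per library. Other sequences, the end forms and those with a terminal mismatch, were chosen after their values were seen. The members and lists were chosen with earlier results of these data known. Facing segments were paired with RNAduplex (ViennaRNA 2.7.2). The alternatives were pseudocounts of 1 and 100, TMM (edgeR 4.0.16), DESeq2 (1.42.0) size factors, totals of adapter-trimmed reads from the study's table, a total without MIR1876, exact matches, reads of 20 to 24 nt, sequences with at least 2 reads, reads divided over places, a 1.5-fold threshold and a minimum of 10 reads. Uniquely placed reads were added after the data were examined. The tools were scipy 1.17.1, pandas 2.3.3 and numpy 2.4.6 in Python 3.11.15, R 4.3.3 and, for plots, matplotlib 3.10.9.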

Additional observations from a re-analysis of the deposited data

How the results depend on the processing

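The alternatives gave 465 values, of which 377 stayed the same by the rule for their kind. Folds had to keep their direction and side of the threshold, and shares to stay within their main interval. Counts of precursors had to stay within 1.5-fold of the main count. The share of the 5' product in both abundant MIR159a segments kept its order, with NP, Ov199 and RNAi at 57.5%, 61.7% and 64.8% in reads of 20 to 24 nt. The family fold was called under every alternative for Ov199 over NP (1.21 to 1.46) and for RNAi over Ov199 (0.723 to 0.919). In RNAi against NP it was 1.08, and was 1.06 with adapter-trimmed totals (exact test, adjusted p = 0.091), 1.06 with exact matches (0.077) and 0.966 with reads of 20 to 24 nt (0.49); over all alternatives the adjusted p ran from 1.1e-09 to 0.49. With reads of 20 to 24 nt, RNAi against NP also turned to 0.983 for MIR159a and to 0.939 for the canonical sequence. Relative to aligned reads, TMM moved all Ov199/NP log2 ratios by 0.14, while adapter-trimmed totals moved them by 0.24 and the RNAi/Ov199 ratios by -0.27.

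In Ov199 against NP, the uncalled folds of MIR159c, MIR159d and MIR159e passed 1, to 1.05, 1.08 and 1.10 with TMM, 1.00, 1.03 and 1.05 with DESeq2 size factors, 1.13, 1.16 and 1.18 with adapter-trimmed totals, and 1.17, 1.18 and 1.24 with exact matches. MIR159e was at 1.02 with reads of 20 to 24 nt, and MIR159d and MIR159e at 1.09 and 1.16 with reads divided over places. In RNAi against NP, MIR159b was at 1.01 with TMM, and MIR159c, MIR159d and MIR159e at 1.00, 1.04 and 1.04 with exact matches. With uniquely placed reads, MIR159b was at 0.798 for Ov199 over NP and 1.05 for RNAi over Ov199, and MIR159c, MIR159d and MIR159e, with 2 reads or fewer in every library, gave no fold. By all reads, MIR159f gained a call in RNAi against Ov199 under 4 alternatives (lowest adjusted p 3.6e-04, with adapter-trimmed totals). The uniquely placed reads of MIR159f stayed between 0.402 and 0.529 in Ov199 against NP and between 0.352 and 0.402 in RNAi against NP, called under each of the 9 alternatives.

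Known precursors past 2-fold numbered 206, 208 and 227 in the 3 comparisons, 49, 54 and 56 with a pseudocount of 100, and 61, 64 and 88 with at least 10 reads. Those called by Fisher's exact test numbered 92, 74 and 103. With exact matches they were 48 for RNAi over NP and 65 for RNAi over Ov199. In the 3 comparisons they were 50, 30 and 54 with reads divided over places, and 40, 24 and 56 with uniquely placed reads. The cause of these changes was not tested, beyond the fewer reads or precursors that the filters leave. No paired analysis was possible because each line has 1 library. With 1 library per line no spread between plants could be estimated, and members with 2 or fewer unique reads are at the limit of the depth.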
